A study of Drosophila melanogaster with 4 samples.

Results

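Chromosome 4 of Drosophila melanogaster held 286 of the 27469 lines deposited as regions enriched for histone H3 monomethylated at lysine 27 (H3K27me1). The members are all such lines on this scaffold, which measures 1351857 bp in FlyBase release 5. The list called for the whole series gave 142 of them, replicate 2 gave 74 and replicate 1 gave 70. The regions come from chromatin immunoprecipitation followed by sequencing (ChIP-seq) in larvae of the third instar of Oregon-R, a wild-type laboratory strain, with a rabbit polyclonal antibody from Millipore. The study comprises 2 ChIP samples and 2 input samples, all from the same strain, stage and genotype, and no treatment was compared. No list from the inputs was used here, so no background level stands beside the ChIP values. The labels do not name separate larval collections for the replicates, so SDs measure only the spread of these samples, which may be technical. The p-values, from the same 2 ChIP samples, reflect only whether both differ in the same direction. Larval tissue mixes many cell types, and a mark on fewer cells cannot be told apart from less of the mark per cell.

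H3K27 methylation is laid down by Polycomb repressive complex 2, whose catalytic subunit in flies is E(z). The trimethylated form is the one bound by Polycomb, and the monomethylated form is a lower methylation state of the same residue. Chromosome 4, the dot chromosome, is unusual in that most of its sequenced part carries heterochromatin protein HP1a and methylated H3K9 while its genes are expressed. It is also bound along its length by POF, a protein that recognises this chromosome. In the RefSeq gene table of release 6 this chromosome has 80 protein-coding genes, among them eyeless, which specifies the eye, and cubitus interruptus, the transcription factor of Hedgehog signalling. No gene is assigned to a region below, because the regions are placed on release 5.

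H3K27me1 regions on chromosome 4 were about as dense as on the autosomal arms in replicate 2 and sparser in replicate 1. They covered 17.3% of chromosome 4 in replicate 2 and 12.9% in replicate 1, a mean of 15.1% ± 3.08 (SD, n = 2). On the 4 autosomal arms (2L, 2R, 3L and 3R) the covered share was 17.3% in replicate 2 and 21.4% in replicate 1. The chromosome carried 54.7 and 51.8 regions per Mb in replicates 2 and 1, against 53.3 and 63.9 per Mb on the arms. In the whole-series list it carried more, 105.0 regions per Mb against 88.5 per Mb on the arms. Regions were somewhat narrower on chromosome 4, with median widths of 2024 bp in replicate 2 and 1990 bp in replicate 1, where the arms had 2238 and 2285 bp. Their enrichment scores, values the authors computed on an unstated scale, were also lower, with medians of 0.50 and 0.49 on chromosome 4 against 0.55 and 0.55 on the arms.

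The difference in median score was -0.047 in replicate 2 and -0.064 in replicate 1, and that in median width was -214 and -295 bp. An exact two-sided sign-flip permutation test over the replicates gave p = 0.5 for score, for width and for covered share (0.5 after adjustment over the 3 comparisons), which is the smallest value 2 replicates can give. With regions as deposited, the mean differences in score and width were larger than the SD between replicates, 0.012 for score and 57.3 bp for width. For both this depended on the setting. With regions within 1 kb joined the mean difference in width was -428.8 bp, smaller in size than its SD of 564.6 bp. With regions of 2 kb or more it was -272 bp, with an SD of 231.9 bp. The covered share of chromosome 4 over that of the arms was 0.999 in replicate 2 and 0.604 in replicate 1, a mean of 0.80 ± 0.28 (SD, n = 2), so the lower share rests on replicate 1. Regions with a score no lower than the median of their whole list numbered 20 (27.0%) on chromosome 4 in replicate 2 and 15 (21.4%) in replicate 1. Over all regions of these lists the shares were 50.1% and 50%, which the use of a median fixes. The whole-list medians, 0.563 in replicate 2 and 0.575 in replicate 1, also lay above the medians of the arms, 0.545 and 0.552. With regions at or above that median alone, the mean difference in median width was 639.8 ± 1569 bp (SD, n = 2). The mean difference in median score was then -0.0037 ± 0.0056 (SD, n = 2). Both were smaller in size than their SDs. These regions covered 6.88% of chromosome 4 in the mean of the replicates.

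Along the scaffold, in steps of 100 kb, the covered share ran from 5.93% to 46.5% in replicate 2 and from 3.67% to 28.4% in replicate 1 among the 13 full bins. By the mean of the replicates, the most covered bin lay from 100 to 200 kb, with 46.5% of the bases inside regions in replicate 2 and 26.4% in replicate 1. Next was the bin from 1200 to 1300 kb, with 35.8% and 28.4% in replicates 2 and 1. The third lay from 300 to 400 kb, with 25.2% and 18.9% covered in replicates 2 and 1. These 3 bins were the top 3 of both replicates, though bin order within them differed, and the order of the bins was largely shared, with a rank correlation (Spearman) of 0.83 and a linear one (Pearson) of 0.88 over the 13 full bins, given as a description.

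Among the full bins, the least covered by the mean of the replicates lay past the middle of the scaffold, from 700 to 900 kb. From 700 to 800 kb regions covered 5.93% of the bases in replicate 2 and 5.24% in replicate 1. From 800 to 900 kb they covered 7.68% and 3.67%. Almost as poor was the bin from 200 to 300 kb, which borders the richest bin and had 6.42% and 5.36% covered. The remaining full bins lay between 8.97% and 23.5% in replicate 2 and between 9.15% and 17.8% in replicate 1. In the short last bin, from 1300 kb to the end, replicate 1 had 2 regions that covered 6.61%, and replicate 2 had none.

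**Figure D1:**
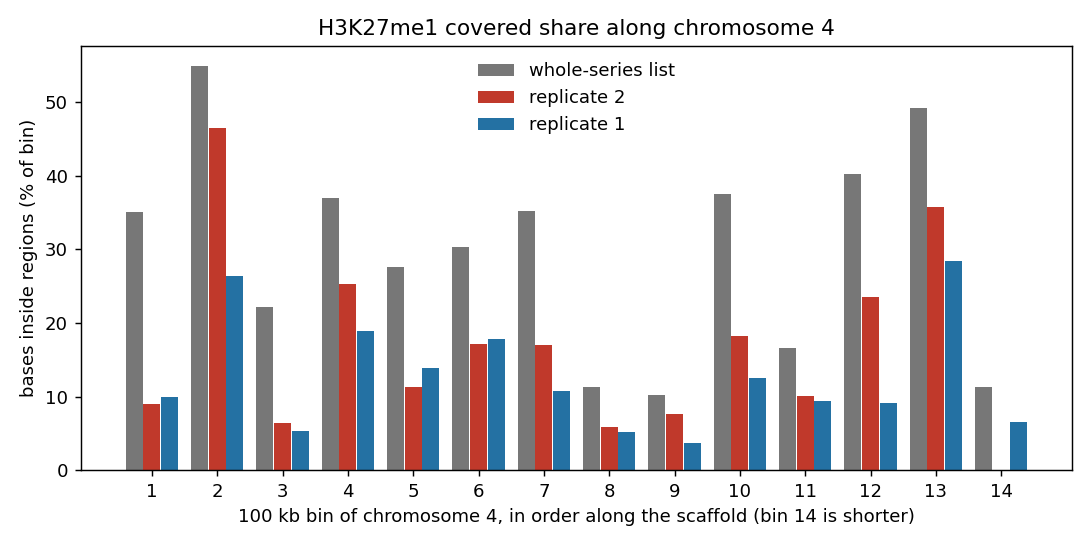
Share of bases inside H3K27me1 regions (y axis, percent of the bin) in each 100 kb bin of chromosome 4, in order along the scaffold (x axis), for the whole-series list (grey), replicate 2 (red) and replicate 1 (blue). Bins 2, 4 and 13 are the highest of both replicates, bins 8 and 9 are low in all 3 lists, and bins 2 and 12 show the widest gaps between the replicates.

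Scores followed another order than coverage. The median score per full bin ran from 0.44 to 0.70 in replicate 2 and from 0.40 to 0.74 in replicate 1, and in both the first 100 kb had the highest median. That bin held only 2 regions in replicate 2 and 3 in replicate 1, so its median rests on few values. In the bin from 100 to 200 kb the medians over 10 regions in each replicate were 0.51 and 0.49. Across regions, wider ones had higher scores, with Spearman coefficients of 0.76 over 74 regions in replicate 2 and 0.65 over 70 in replicate 1. In the whole-series list the coefficient was 0.32 over 142 regions. Neighbouring regions share a library and are not independent, so no p-value is attached.

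**Figure D2:**
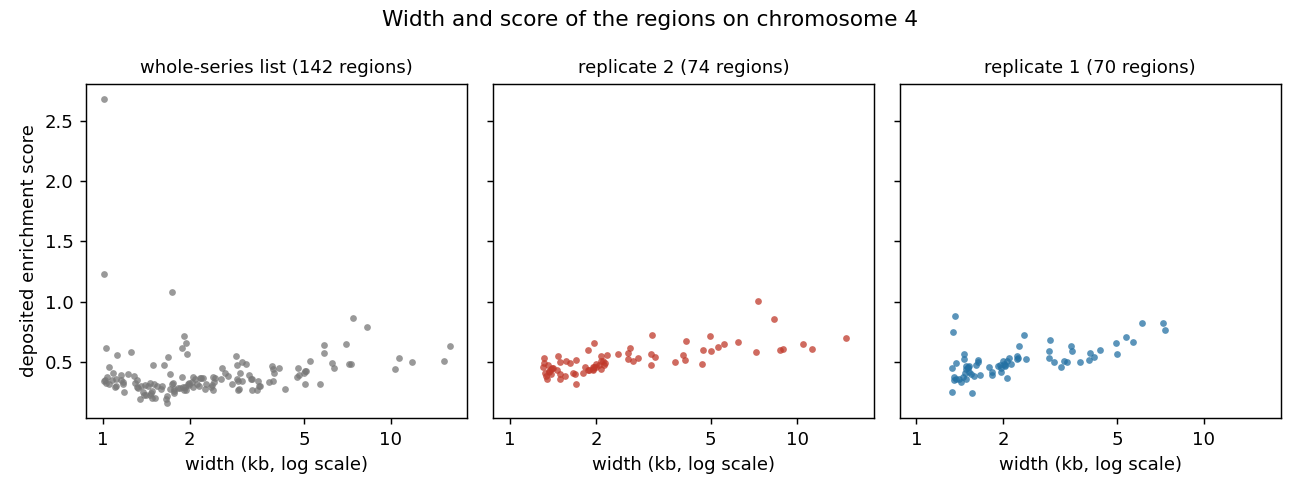
Deposited enrichment score (y axis) against region width in kb (x axis, log scale) for the regions of chromosome 4 in the whole-series list, replicate 2 and replicate 1, each point being 1 region. Wider regions have higher scores in both replicates, and the whole-series list adds regions near 1 kb, including its highest score of 2.69.

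When the 3 lists were laid over one another, chromosome 4 fell into 139 separate marked stretches, of which 36 held regions of all 3 lists. The stretch whose lower replicate score was highest ran from 569244 to 577819. It measured 8.58 kb and had a top score of 0.85 in replicate 2 and 0.82 in replicate 1. Next was a stretch of 7.41 kb from 90752 to 98157, at the edge of the richest bin, with scores of 1.01 and 0.76 in the same order. The regions of the replicates matched closely here, since they started at 90870 and 90763 and ended at 98153 and 98061. The third ran from 1039802 to 1047028, over 7.23 kb, with scores of 0.71 in replicate 2 and 0.82 in replicate 1. It began where a free stretch of 56.9 kb ended.

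The widest stretch marked by all lists ran from 111060 to 127225, over 16.2 kb. Replicate 2 called it as 1 region of 14.8 kb with a score of 0.69, and replicate 1 as 3 regions with a top score of 0.72 that together covered 12.7 kb. Near the far end, stretches of 11.9 kb from 1241172 to 1253034 and 15.3 kb from 1261609 to 1276938 were also split, with 2 regions in replicate 2 and 3 in replicate 1 in each. A stretch of 10.7 kb from 351386 to 362110 was 1 region in replicate 2 and 2 in replicate 1, with top scores of 0.64 and 0.56. The other 3 of the 10 strongest stretches measured 3.05, 5.29 and 5.86 kb.

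Regions of 10 kb or more numbered 3 on chromosome 4 in replicate 2 and 0 in replicate 1, whose widest region there was 7.30 kb. The 3 regions measured 14.8, 11.2 and 10.5 kb, and replicate 1 covered 85.4%, 50.9% and 75.6% of their bases with several narrower regions. On the autosomal arms 2.88% of regions in replicate 2 and 3.50% in replicate 1 were this wide.

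Replicate 2 marked more of chromosome 4 than replicate 1, although it marked less of every large arm. The covered bases on chromosome 4 amounted to 233.7 kb in replicate 2 and 174.9 kb in replicate 1, a ratio of 1.34. On the autosomal arms the ratio of replicate 2 to replicate 1 was 0.81, with 0.84 on 2L, 0.78 on 2R, 0.81 on 3L and 0.80 on 3R, and on X it was 0.78. On the placed heterochromatin scaffolds it was 1.11, so chromosome 4 was not alone in a ratio above 1. Among 70 windows of the length of chromosome 4 laid end to end along the autosomal arms, the ratio ran from 0.58 to 1.09 with a median of 0.80. None reached the value of chromosome 4, as a description of these libraries. With regions of 2 kb or more alone, chromosome 4 had a ratio of 1.48 and 1 of the 70 windows was as high. With regions scoring at least the median of their list it had 2.05 and no window was as high.

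The 3 arm windows with the highest ratios lay at the centromere side of their arms. The last window of 2L, from 21629713 to 22981569, had a ratio of 1.09. It was followed by the first of 2R with 1.08 and the last of 3L, from 22981570 to 24333426, with 1.07. The centromere-side window of 3R, with 0.89, was 14th of the 70.

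**Figure D3:**
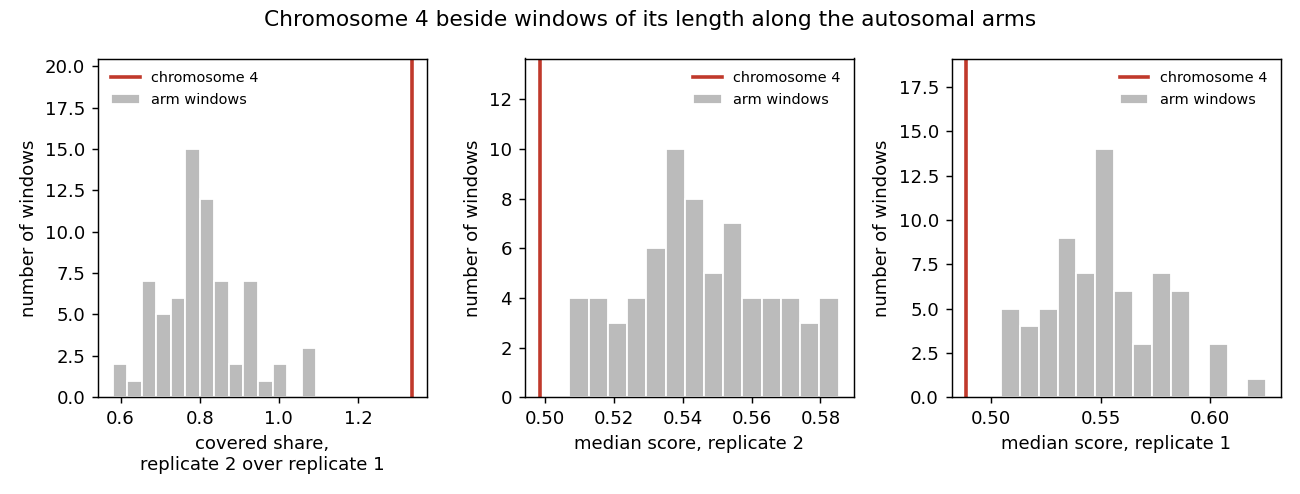
Chromosome 4 (red line) beside 70 windows of its length laid end to end along the autosomal arms (grey bars, number of windows on the y axis), for the covered share of replicate 2 over replicate 1 and for the median region score of replicate 2 and of replicate 1. The ratio on chromosome 4, 1.34, lies above all windows, and its median scores, 0.50 and 0.49, lie below all of them.

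The median score of chromosome 4 also lay outside these windows, which ran from 0.507 to 0.585 in replicate 2 and from 0.504 to 0.625 in replicate 1, against 0.498 and 0.489 on chromosome 4. Its covered share did not: 34 of the 70 windows were covered at least as much in replicate 2 and 62 in replicate 1.

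Of the 13 full bins of chromosome 4, 10 were covered more in replicate 2 than in replicate 1, against 17.1% of all full 100 kb bins on the 5 large arms and chromosome 4. The excess was uneven. The bin from 100 to 200 kb differed by 20.1 percentage points and the bin from 1100 to 1200 kb, with 23.5% in replicate 2 and 9.15% in replicate 1, by 14.4 points. These 2 bins held 34.5 kb of the net excess of 58.8 kb, or 58.6%. None of 965 full bins on the autosomal arms had a difference in favour of replicate 2 as large as the first, and 1 reached the second. In favour of replicate 1, differences in the arm bins ran as far as -27.9 points. Without the 2 bins replicate 2 covered 14.2% and replicate 1 12.1% of the rest of chromosome 4, a ratio of 1.17 that still lay above every window.

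Differences of 4.01 to 7.34 points in favour of replicate 2 were found in 5 further bins, from 300 to 400, 600 to 700, 800 to 900, 900 to 1000 and 1200 to 1300 kb. Between 200 and 300, 700 and 800, and 1000 and 1100 kb the replicates differed by at most 1.07 points. Replicate 1 covered more in 3 of the full bins, with 8.97% in replicate 2 and 9.97% in replicate 1 from 0 to 100 kb and a difference of -2.68 points from 400 to 500 kb and -0.60 points from 500 to 600 kb. It also covered more in the short last bin. With regions scoring at least the median of their list, 20 in replicate 2 and 15 in replicate 1, replicate 2 covered more in 6 of the 14 bins. The bins from 200 to 300, 800 to 900 and 900 to 1000 kb then held no region of either replicate.

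**Figure D4:**
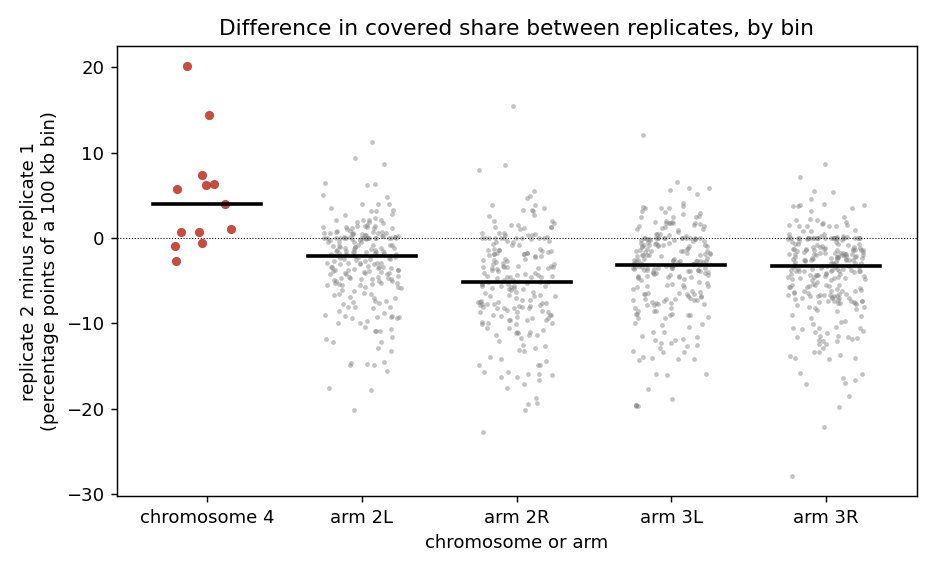
Covered share of replicate 2 minus that of replicate 1 (y axis, percentage points) in the full 100 kb bins of chromosome 4 (red points) and of each autosomal arm (grey points), with the median of each group as a black bar. The median is 4.01 points over 13 bins of chromosome 4 and -3.33 points over 965 bins of the arms, and the highest point, 20.1, belongs to chromosome 4.

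The bases marked by replicate 2 alone came both from separate regions and from wider shared ones. Bases in replicate 2 but not in replicate 1 amounted to 106.1 kb of chromosome 4, and those in replicate 1 alone to 47.3 kb, beside 127.7 kb in both. Bases in both made up 45.4% of those in either (the Jaccard index), against 58.1% on the autosomal arms. An index as low was found in 7 of the 70 arm windows, among them the centromere-side windows of 2L, 2R and 3L. On the placed heterochromatin scaffolds it was 29.5%, so chromosome 4 was not alone in a low index. Of the 106.1 kb, 59.1 kb (55.7%) lay in 32 regions of replicate 2 that met no region of replicate 1, and 47.0 kb extended regions that did. The share in regions without a partner was 46.0% on the arms. Of the 47.3 kb of replicate 1 alone, 35.6 kb (75.4%) lay in its 21 regions without a partner, against 53.1% on the arms. The remaining 11.6 kb extended shared regions, so replicate 2 carried the shared regions further than replicate 1 did.

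The longest runs in replicate 2 alone were whole regions between 1100 and 1200 kb. They were 4.11 kb from 1187010 to 1191119, with a score of 0.67, and 4.00 kb from 1166786 to 1170790, with a score of 0.56. The third, 3.18 kb from 1150176 to 1153355, lay inside a region of replicate 2 of 7.16 kb that spanned the gap between separate regions of replicate 1. Of the 10 longest runs, 4 were regions without a partner and 6 extended or bridged shared regions, and the whole-series list covered at least 93.2% of each. In the richest bin the region of 11.2 kb from 180218 to 191446 in replicate 2 bridged 3 regions of replicate 1 and ran beyond them.

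The 3 longest runs in replicate 1 alone lay between 400 and 600 kb. A pair of neighbouring regions, from 549748 to 552644 and from 553204 to 556087, measured 2.90 and 2.88 kb with scores of 0.59 and 0.53, and replicate 2 had no region over either. A region from 459932 to 462171 with a score of 0.52 and a region from 1320466 to 1322530 with a score of 0.36 followed. The highest score of replicate 1 on chromosome 4, 0.88, belonged to a region of 1.36 kb from 1307539 to 1308902, near the end where replicate 2 had no region. The highest score of replicate 2, 1.01, belonged to the shared stretch that starts at 90752.

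A region of replicate 1 was met, by at least 1 bp, by 42 of the 74 replicate 2 regions on chromosome 4 (56.8%, 95% Wilson interval 45.4 to 67.4), against 81.6% of all replicate 2 regions. In the other direction 49 of 70 regions of replicate 1 (70.0%, 58.5 to 79.5) overlapped replicate 2, against 66.5% of all its regions. The interval for replicate 2 lay below the value of the whole list and that for replicate 1 included it. Both intervals take each region as an independent draw and hold the error of counting alone. Unpartnered regions of replicate 2 measured 1692.5 bp at the median and scored 0.45, while its partnered regions measured 2945 bp and scored 0.54.

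Matched regions were compared where exactly 1 region of each replicate overlapped, which gave 28 pairs on chromosome 4 and 2787 on the autosomal arms. Their edges differed by a median of 312.5 bp on chromosome 4 and 299 bp on the arms. The score was higher in replicate 2 for 19 of the 28 pairs (67.9%), with a median difference of 0.011, against 35.5% of pairs and a median difference of -0.037 on the arms. Replicate 2 had the wider region in 18 of the 28 pairs (64.3%), against 35.2% on the arms. The gap in score was widest for the stretch from 90870 to 98153, by 0.24 in favour of replicate 2. Pairs of 1 library share its depth and enrichment, which are unknown here, so these counts carry no p-value.

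**Figure D5:**
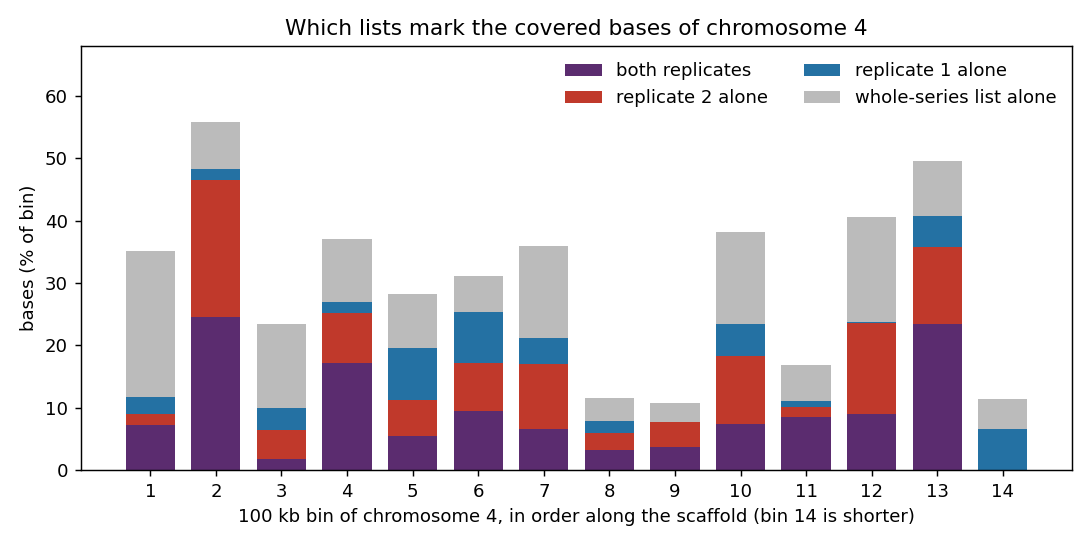
Share of each 100 kb bin of chromosome 4 (y axis, percent of the bin; bins in order along the x axis) marked by both replicates (purple), by replicate 2 alone (red), by replicate 1 alone (blue) and by the whole-series list alone (light grey); the white space above is free in all lists. Bins 2, 12 and 13 hold the most bases of replicate 2 alone, bins 5 and 6 the most of replicate 1 alone, and bin 1 the most of the whole-series list alone.

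Between the marked stretches 931.6 kb, or 68.9% of chromosome 4, was free of regions in all 3 lists, against 68.1% of the autosomal arms. The longest free stretch, 76.6 kb from 799155 to 875778, took up most of the bin from 800 to 900 kb. It was followed by 63.8 kb from 1084399 to 1148153, by 60.2 kb from 715842 to 776060 and by 56.9 kb from 982888 to 1039801. A further stretch of 41.1 kb ran from 500922 to 541983. The stretches that end at 776060 and start at 799155 were parted by 3 whole-series regions, of which replicate 2 shared 1 and replicate 1 another.

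The last 29.3 kb of the scaffold, from 1322531, was also free. Then came 25.4 kb from 212505 to 237865, 23.3 kb from 412346 to 435691 and 22.8 kb from 678422 to 701190, and the 10th measured 19.8 kb. Free stretches of 20 kb or more numbered 9 and held 29.5% of chromosome 4, against 38.7% of the autosomal arms and 27.6% of X. Of the 70 arm windows, 55 had a longest free stretch at least as long as that of chromosome 4. With regions scoring at least the median of their list the longest stretch was 172 kb. Unmappable sequence in these stretches was not assessed.

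The whole-series list covered 413.2 kb, or 30.6%, of chromosome 4, against 31.5% of the autosomal arms. This was 2.02 times the replicate mean, against 1.62 times on the arms. Of the 70 arm windows, 5 had a ratio at least as high, among them the centromere-side windows of 2L, 2R and 3L. On the placed heterochromatin scaffolds the ratio was 3.18. The 142 regions of the whole-series list on chromosome 4 had a median score of 0.34, against 0.39 on the arms. The list held 97.8% of the bases of replicate 2 and 99.0% of those of replicate 1, and every base found in both. A further 139.3 kb was in this list alone. Of its regions on chromosome 4, 38 met both replicates (26.8%, against 35.1% over the whole list). Another 31 met replicate 2 alone (21.8%, against 8.37%) and 19 met replicate 1 alone (13.4%, against 18.7%). The 54 regions that met neither were 38.0% on chromosome 4 and 37.8% over the whole list, so their share was near that of the genome.

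In the first 100 kb the whole-series list covered 35.1% of the bases, against 8.97% in replicate 2 and 9.97% in replicate 1, which was 3.71 times the replicate mean. It had 16 regions there, of which 12 met neither replicate, the widest being 5.89 kb from 18653 to 24540 with a score of 0.63. Only the bin from 200 to 300 kb had a higher ratio among the full bins, 3.77, and in the 3 most covered bins the ratio was 1.50 to 1.67. The first region began at 470 in the whole-series list, at 61051 in replicate 2 and at 15731 in replicate 1.

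The highest scores of the whole-series list on chromosome 4 belonged to narrow regions found in neither replicate. They were 2.69 for a region of 1004 bp from 931219 to 932222, 1.23 for 1006 bp from 612198 to 613203 and 1.08 for 1740 bp from 1314512 to 1316251. The next, 0.86, was the shared stretch from 90752 to 98157. Of the 54 regions in neither replicate, 19 were narrower than the narrowest replicate region on chromosome 4, which measured 1309 bp. On the autosomal arms the narrowest region measured 1301 bp in each replicate and 1001 bp in the whole-series list. The lack of such narrow regions in the replicates is therefore not particular to chromosome 4. The sources used here do not say how this list was made from the replicates.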

How the data were processed

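The deposited files are lists of regions, 1 for each ChIP replicate and 1 for the whole series. Each region has a score computed by the authors. The headers give no scale for it, so scores are given as deposited, to describe and rank regions and to compare medians. The submitters' processing notes name Bowtie 0.12.7, and positions are on FlyBase release 5 per the file headers. How regions were called is not stated, and read depth is unknown.

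Regions were used as deposited, trimmed at scaffold ends. The 3 lines marked as depletion were left out, with 0 of them on chromosome 4. Covered shares count unsequenced bases in the scaffold length. Bins of 100 kb start at the first base, and the covered share of a bin counts the bases inside it. For counts, scores and widths, a region belongs to the bin of its midpoint. Overlap means at least 1 bp, and intervals are 95% Wilson intervals. Interval code was tested on simulated data.

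Named by rule were the 10 widest and 5 highest-scoring regions of each list, the 10 strongest stretches in all lists, the 10 longest free stretches and the longest runs in 1 replicate alone. The region starting at 18653 was named after its values were seen. Members and comparisons were chosen with earlier results of these data known. Genes were not placed, since gene positions were at hand for release 6 only. Python 3.11.15, numpy 2.4.6, pandas 2.3.3, scipy 1.17.1 and matplotlib 3.10.9 were used.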

Additional observations from a re-analysis of the deposited data

How the results depend on the processing

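Of 69 recomputed values over 12 results, 53 were counted as the same, 15 as moved and 1 as changed in direction. The rules differed by result, so these counts do not measure stability. For the ratio of covered share to the arms and the differences in score and width, same meant only an unchanged direction. The Jaccard index was held to a Wilson interval over single bases, so 45.7% counted as moved from 45.4%. Most others were judged by a set factor, a Wilson interval over regions or the SD of the replicates. Direction applies only to differences and to ratios of chromosome 4 to the arms or of replicate 2 to replicate 1. Covered shares, the Jaccard index, shares of regions with a partner, bin counts, the free stretch and the whole-series ratio could not reverse in this count. The 1 reversal was the median width on chromosome 4 minus that on the arms. With regions scoring at least the median of their list it was 639.8 bp. The same limit lowered the covered share of chromosome 4 to 6.88%, the Jaccard index of the replicates to 34.9% and the share of replicate 2 regions with a partner to 45.0%. It left 6 of 14 bins covered more in replicate 2, while some bins held no such region in either replicate. It also left a longest free stretch of 172 kb, and it raised the ratio of replicate 2 to replicate 1 to 2.05. By its construction this limit leaves fewer regions, and more so on chromosome 4.

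Regions of 2 kb or more covered 11.0%, and the whole-series list 30.6%. The Jaccard index was 45.4% as reported, 45.7% with regions within 1 kb joined, 44.8% with regions of 2 kb or more and 43.4% without the first and last 100 kb. With 50% of both regions overlapping, 39.2% of replicate 2 regions and 41.4% of replicate 1 regions had a partner. Replicate 2 covered more in 20 of 28 bins of 50 kb and 6 of 7 bins of 200 kb; these counts change with the number of bins. With either replicate left out, the covered share ranged from 12.9% to 17.3%, its ratio to the arms from 0.604 to 0.999, the score difference from -0.064 to -0.047, the width difference from -295 to -214 bp, and the whole-series ratio from 1.77 to 2.36.

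The ratio of replicate 2 to replicate 1 and its alternatives were chosen after the data were examined. No paired analysis was possible between ChIP and input samples, which share replicate numbers, because the lists analysed here are of the ChIP samples alone. Chromosome 4 was compared with the arms within each ChIP replicate.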
